A study of Macaca mulatta with 24 samples.

Results

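Calmodulin, the calmodulin-dependent kinases (CaM kinases) and calcineurin form the calcium-reading group examined here, measured in single layers of the lateral geniculate nucleus (LGN) of monocularly deprived rhesus macaques. The list held 9 genes: the calmodulin gene CALM3, the CaM kinase II genes CAMK2A, CAMK2B, CAMK2D and CAMK2G, the CaM kinase IV gene CAMK4, and the calcineurin genes PPP3CA, PPP3CB and PPP3R1. A probe set, the group of probes that the array summarises into 1 signal, was taken where the platform annotation assigned it to exactly 1 of these symbols. This gave 18 of the 52766 probe sets. They stand for 7 of the 9 listed genes, out of 14132 genes measured in this way: 1 for CAMK2A, 4 for CAMK2B, 3 for CAMK2D, 3 for CAMK2G, 2 for CAMK4, 2 for CALM3 and 3 for PPP3CB. PPP3CA and PPP3R1 had no probe set with a single symbol and were not analysed here. Of the 18 probe sets, 17 reached a signal of 100 on at least 1 array and were tested among 37623 probe sets. The remaining one, MmugDNA.15948.1.S1_at of CAMK2B, stayed at or under 49.5 on every array.

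When a neuron is active, calcium enters through its channels and receptors and is bound by calmodulin, a small protein that then switches on its partner enzymes. CaM kinase II is assembled from alpha, beta, gamma and delta subunits, each from its own gene, and can hold itself active after the calcium has gone, which has made it a model enzyme of synaptic memory. CaM kinase IV works largely in the nucleus, where it phosphorylates the transcription factor CREB. Calcineurin is the opposing enzyme, a calcium- and calmodulin-dependent phosphatase with a catalytic A subunit (PPP3CA, PPP3CB or PPP3CC) and a regulatory B subunit (PPP3R1), known for dephosphorylating NFAT transcription factors and for its part in synaptic depression. In the visual system this kinase and phosphatase pair is best known from cortical ocular dominance plasticity in rodents.

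The arrays came from 2 animals of the study whose left eye was deprived from birth, in 1 by an opaque contact lens for 2 months and in the other by suturing the lids for 4 months, so that age, duration, method and animal cannot be told apart. Both LGNs of each animal were taken, and each of the 6 main layers was captured by laser and hybridised on its own, the thin koniocellular layers being left out. Layers 2, 3 and 5 of the LGN on the side of the deprived eye and layers 1, 4 and 6 of the opposite LGN receive the deprived eye. The groups were 8 deprived and 8 nondeprived parvocellular layers (layers 3 to 6, of small cells serving form and colour) and 4 deprived and 4 nondeprived magnocellular layers (layers 1 and 2, of large cells serving motion). All nondeprived layers came from the same deprived animals, and no normally reared animal was included. The p-values rest on the spread of layers inside these 4 LGNs and are too small as to animals.

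The tissue labels were checked against marker genes. The neuron markers SYT1, ENO2, STMN2 and UCHL1 read 100 or more on all 24 arrays, and so did the 4 astrocyte markers, the 2 oligodendrocyte markers, 3 of 4 endothelial markers and 3 of 6 microglial markers, so markers of other cell types were read in these layers too. Of the rest, FLT1 of endothelium reached 100 on no array, and CX3CR1, C1QB and AIF1 of microglia on 3, 19 and 21. The RNA of 1 array stood apart, that of the ipsilateral, deprived magnocellular layer 2 at 2 months, with a GAPDH 3′ to 5′ signal ratio of 50.8, against 1.97 to 14.3 on the other 23 arrays, and a mean correlation with the others of 0.811, against 0.885 to 0.919. It enters no comparison within the parvocellular layers. Across all probe sets 3.60% passed between parvocellular and magnocellular layers, 846 higher and 509 lower (647 and 142 when all arrays were scaled to a common median), and 0.970% between deprived and nondeprived parvocellular layers, 220 higher and 145 lower (18 and 7 after that scaling, and 136 to 457 in all when 1 array was left out).

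Among the 17 probe sets, 3 calls were made, and all were of lower signals. For CAMK2G and for PPP3CB, 1 probe set each was lower in parvocellular than in magnocellular layers, 0 higher and 2 lower of 17, beside the 3.60% of all probe sets that passed. The same PPP3CB probe set was lower in deprived than in nondeprived parvocellular layers, 0 higher and 1 lower of 17, beside 0.970% of all probe sets. The log2 fold change of the signal, called the log2 ratio from here on, had a median of 0.02 over the 17 for parvocellular over magnocellular layers, against -0.03 for all probe sets tested. For deprived over nondeprived parvocellular layers it was -0.12, against -0.01 for all, and 12 of the 17 were negative. Between deprived and nondeprived magnocellular layers none of the 17 passed (limma; 3 had an unadjusted p under 0.05, all lower), 0% of all probe sets did (2138 at an unadjusted p under 0.05), and the median of the 17 was -0.13, against 0.13 for all.

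**Figure D1:**
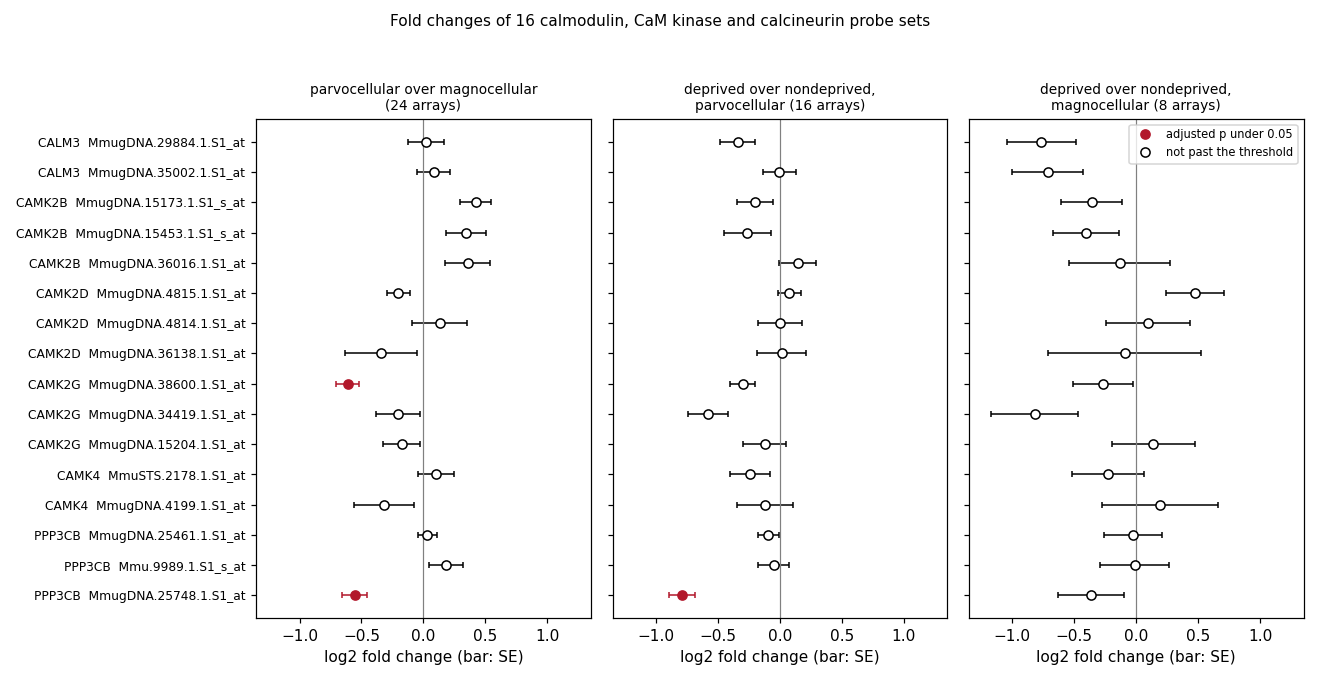
Log2 fold change of signal for 16 of the 17 tested probe sets (rows; that of CAMK2A, near the floor, is not drawn) in the 3 main comparisons (panels), with standard errors as bars and filled symbols for an adjusted p under 0.05 from limma. The filled symbols are CAMK2G at -0.61 and PPP3CB at -0.55 for parvocellular over magnocellular layers and PPP3CB at -0.79 for deprived over nondeprived parvocellular layers; no symbol is filled for magnocellular deprivation.

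CALM3, 1 of the genes that encode the same calmodulin protein, did not pass in any comparison, and its lower values in deprived layers were most regular in the magnocellular class. In deprived magnocellular layers MmugDNA.29884.1.S1_at, the primary probe set of the gene, read 3501 and 3931 in layer 1 of the contralateral LGN at 2 and 4 months and 2966 and 1884 in layer 2 of the ipsilateral LGN at 2 and 4 months. In nondeprived magnocellular layers it read 4693 and 5845 in contralateral layer 2 and 4026 and 5799 in ipsilateral layer 1 at 2 and 4 months. Every deprived layer lay below every nondeprived one, and the log2 ratio was -0.76 (SE 0.28, limma adjusted p = 0.836), lower in 4 of 4 LGNs. Without either magnocellular array of the ipsilateral LGN at 4 months it was -0.48.

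The other CALM3 probe set, MmugDNA.35002.1.S1_at, split the magnocellular layers in the same way. It read 1473, 1672, 669.9 and 999 in the deprived layers and 1743, 2105, 1787 and 1829 in the nondeprived layers, in the same order of arrays. Its log2 ratio was -0.72 (SE 0.29, adjusted p = 0.836), lower in 4 of 4 LGNs, and -0.48 without the array that stood apart, which holds the lowest of these signals. These were the 2 of 17 probe sets whose magnocellular groups did not overlap, beside 4.07% of all probe sets. The GAPDH 3′ to 5′ ratio ran from 3.95 to 50.8 (median 8.11) in these deprived and from 3.74 to 14.3 (median 4.36) in these nondeprived layers. With it as a covariate the log2 ratio was -0.78 for the primary probe set and -0.48 for MmugDNA.35002.1.S1_at.

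In parvocellular layers the primary CALM3 probe set read between 2142 and 5276 (median 3649) in 8 deprived layers and between 2963 and 8077 (median 4217) in 8 nondeprived layers, with wide overlap. By LGN the log2 difference was -0.56 and -0.72 on the ipsilateral side at 2 and 4 months, and -0.07 and -0.01 on the contralateral side. The other probe set had a log2 ratio of -0.00 there. Its deprivation effect differed between the classes at an unadjusted limma p of 0.013, which became an adjusted p of 0.70 over all probe sets, for a difference of 0.71 on the log2 scale, and no probe set of the array passed this test (0%, 2540 at an unadjusted p under 0.05). CALM3 did not separate the classes themselves: the primary probe set read between 2142 and 8077 (median 3956) in parvocellular and between 1884 and 5845 (median 3979) in magnocellular layers, a log2 ratio of 0.02 (SE 0.15, adjusted p = 0.962).

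**Figure D2:**
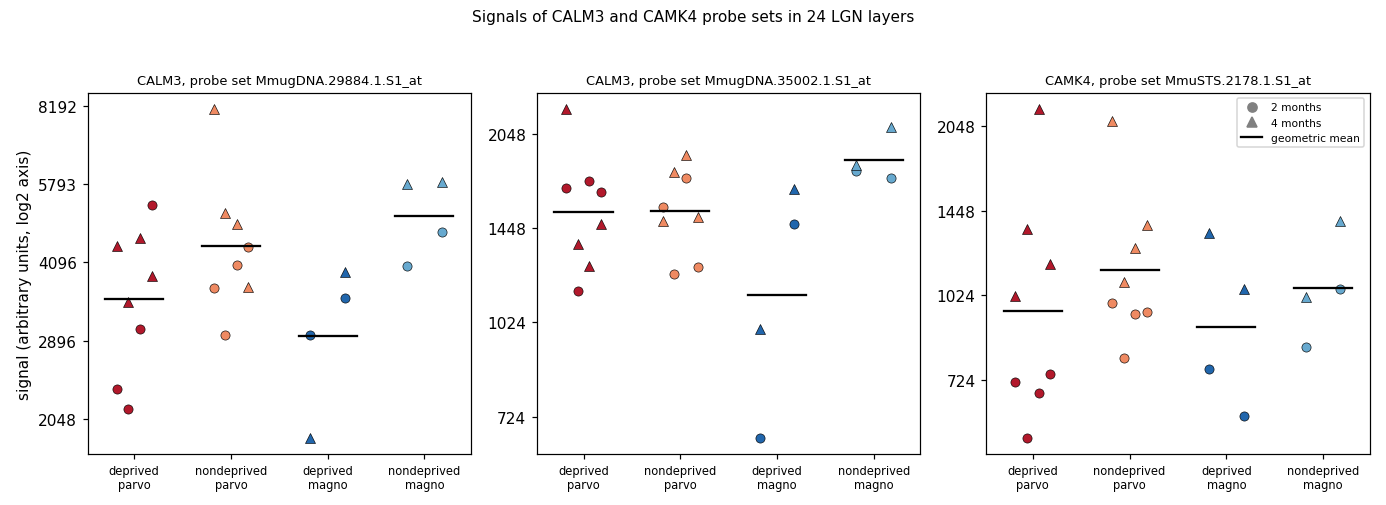
Signal (arbitrary units, log2 axis) of both CALM3 probe sets and of the primary CAMK4 probe set on each of 24 arrays, by group; circles are the animal of 2 months, triangles the animal of 4 months, and lines the geometric mean. The 4 deprived magnocellular points of both CALM3 probe sets lie below the 4 nondeprived ones, and for CAMK4 the triangles of the parvocellular layers lie above the circles, from 1023 upward against 992 at most.

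CAMK2A, the alpha subunit that dominates in forebrain excitatory neurons, was followed through 1 probe set with signals near the floor. This probe set, MmugDNA.14638.1.S1_at, read 175 on the array that stood apart and between 4.08 and 58.4 on the other 23, so it entered the tests through that array alone. Its log2 ratios were -0.56 (SE 0.56, adjusted p = 0.684) for parvocellular over magnocellular layers, 0.47 (SE 0.65) for deprived over nondeprived parvocellular and 0.77 (SE 0.94) for magnocellular layers, none of them larger than its standard error. At such signals neither a level nor a difference was detectable with this probe set, which says nothing of how much CAMK2A transcript the layers held.

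CAMK2G, the gamma subunit, which in rodent neurons shuttles calmodulin to the nucleus, was lower in parvocellular layers at its primary probe set. MmugDNA.38600.1.S1_at read between 4888 and 8719 (median 7345) in 16 parvocellular layers and between 8386 and 13359 (median 10427) in 8 magnocellular layers, or 6989.7 ± 1147 and 10623 ± 1562 (SD, n = 16 and n = 8 layers). The top of the first range and the bottom of the second met, so the groups overlapped here, as they did for each of the 17 probe sets in this comparison, beside 0.0797% of all probe sets without overlap. The log2 ratio was -0.61 (SE 0.09, limma adjusted p = 0.000209), a fold of 1.53, and it was -0.49 and -0.79 in the contralateral and -0.66 and -0.50 in the ipsilateral LGN at 2 and 4 months. The call was lost after scaling to a common median (-0.49, adjusted p = 0.0565), in the animal of 2 months alone (-0.58, adjusted p = 0.0816) and among deprived layers only (-0.62, adjusted p = 0.211).

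Within the parvocellular layers the same CAMK2G probe set was lower on the deprived side without passing. It read between 4888 and 8178 (median 5888) in deprived and between 6613 and 8719 (median 7650) in nondeprived layers, with a log2 ratio of -0.30 in which 4 of 4 LGNs were negative (adjusted p = 0.196). In magnocellular layers it read 8386, 9732, 10843 and 9512 in the deprived and 13359, 11985, 11156 and 10011 in the nondeprived layers of the same LGNs. Each LGN had the lower value in its deprived layer (-0.27, SE 0.24, adjusted p = 0.867).

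Another CAMK2G probe set, MmugDNA.34419.1.S1_at, gave its clearest values between deprived and nondeprived layers rather than between classes. It read between 1068 and 3714 (median 2466) in deprived and between 1982 and 5239 (median 3284) in nondeprived parvocellular layers, a log2 ratio of -0.58 (SE 0.16, adjusted p = 0.0927), lower in 4 of 4 LGNs. Without nondeprived layer 4 of the ipsilateral LGN at 4 months it passed, at -0.69 (adjusted p = 0.0262). In magnocellular layers it read 2109.9, 3287, 1383 and 3191 in the deprived and 2402, 4434, 6774 and 4129.6 in the nondeprived layers, a log2 ratio of -0.82 (SE 0.35, adjusted p = 0.836), and -0.33 without the array that stood apart, which gave the 1383. Its log2 ratio between the classes was -0.20 (SE 0.18, adjusted p = 0.624). The log2 ratio of the primary probe set minus that of this one was -0.41, negative in 4 of 4 LGNs, with an exact permutation p of 0.0697 (two-sided, arrays exchanged within LGNs, also 0.0697 after adjustment over 6 such differences), and -0.13 without the array that stood apart (p = 0.405). The 6 differences between probe sets were chosen after their values were seen, so their p-values are too small. The third, MmugDNA.15204.1.S1_at, read between 140 and 390 on all arrays and had -0.18 between the classes.

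CAMK2B, the beta subunit, which binds actin and holds the kinase at synapses, leaned the other way. MmugDNA.15173.1.S1_s_at read between 4315 and 12747 (median 7265) in parvocellular and between 3939 and 9124 (median 5686) in magnocellular layers. The ranges overlapped widely, and the log2 ratio was 0.42 (SE 0.12, adjusted p = 0.0601), higher in 4 of 4 LGNs. It passed after quantile normalization (adjusted p = 0.0471), when only mean signals of 100 or more were kept (adjusted p = 0.0405) and when any of 4 deprived arrays was left out, at an adjusted p of 0.0363 to 0.0433. These were layer 5 of the ipsilateral LGN at 2 and at 4 months, and at 4 months layer 4 of the contralateral and layer 2 of the ipsilateral LGN. MmugDNA.15453.1.S1_s_at and MmugDNA.36016.1.S1_at of the same gene had 0.34 (SE 0.16, adjusted p = 0.281) and 0.36 (SE 0.18, adjusted p = 0.334), also positive in 4 of 4 LGNs. At MmugDNA.36016.1.S1_at only magnocellular layer 2 (median 1295) lay below the parvocellular layers (median 1881 together). Layer 1 (median 2416) lay above that joint median but not above parvocellular layer 6 (median 2425).

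The primary probe sets of the gamma and beta subunits had log2 ratios of opposite sign between the layer classes, of which only that of CAMK2G passed. Within each LGN the parvocellular over magnocellular log2 ratio of the primary CAMK2G probe set was 1.03 below that of the primary CAMK2B probe set, in 4 of 4 LGNs. Without the array that stood apart the difference was -0.97. This pair was picked for its opposite signs, so the difference is a description. Its exact permutation p of 1.98e-05 (two-sided, adjusted p = 0.000119) was 1 of the 6 adjusted together and, given that choice, adds no support.

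Deprivation gave CAMK2B no call. The primary probe set read between 4315 and 12747 (median 7101) in deprived and between 6290 and 12716 (median 8001) in nondeprived parvocellular layers (-0.20, SE 0.15, adjusted p = 0.675). In magnocellular layers it read 3939, 4753, 6221 and 5397 in the deprived and 6465, 4848, 9124 and 5974 in the nondeprived layers (-0.36, adjusted p = 0.837), lower in the deprived layer of each LGN.

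CAMK2D, the delta subunit, best known from heart muscle, had signals far above the minimum on every array at MmugDNA.4815.1.S1_at, and they were higher in the deprived magnocellular layer of each LGN. In deprived magnocellular layers it read 18277, 21043, 14580 and 19342, and in nondeprived magnocellular layers of the same LGNs 11566, 16873, 11128 and 13386. This was a log2 ratio of 0.47 (SE 0.23, adjusted p = 0.836), and the groups overlapped through 1 nondeprived layer. In parvocellular layers it read between 11864 and 16229 (median 13125) in deprived and between 11181 and 15079 (median 13318) in nondeprived layers, with a log2 ratio of 0.08 (SE 0.09, adjusted p = 0.835). The deprivation effect of parvocellular layers was 0.40 below that of magnocellular layers at an unadjusted p of 0.0432 (limma adjusted p = 0.738). Between the classes it had -0.20 (SE 0.09, adjusted p = 0.278). Among nondeprived layers alone its mean was 13238 (median 12476) in magnocellular and 13082 (median 13318) in parvocellular layers. The other CAMK2D probe sets, MmugDNA.4814.1.S1_at and MmugDNA.36138.1.S1_at, did not show the magnocellular rise. They had 0.10 and -0.09 for magnocellular deprivation, each higher in 2 of 4 LGNs, and 0.13 and -0.34 between the classes.

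**Figure D3:**
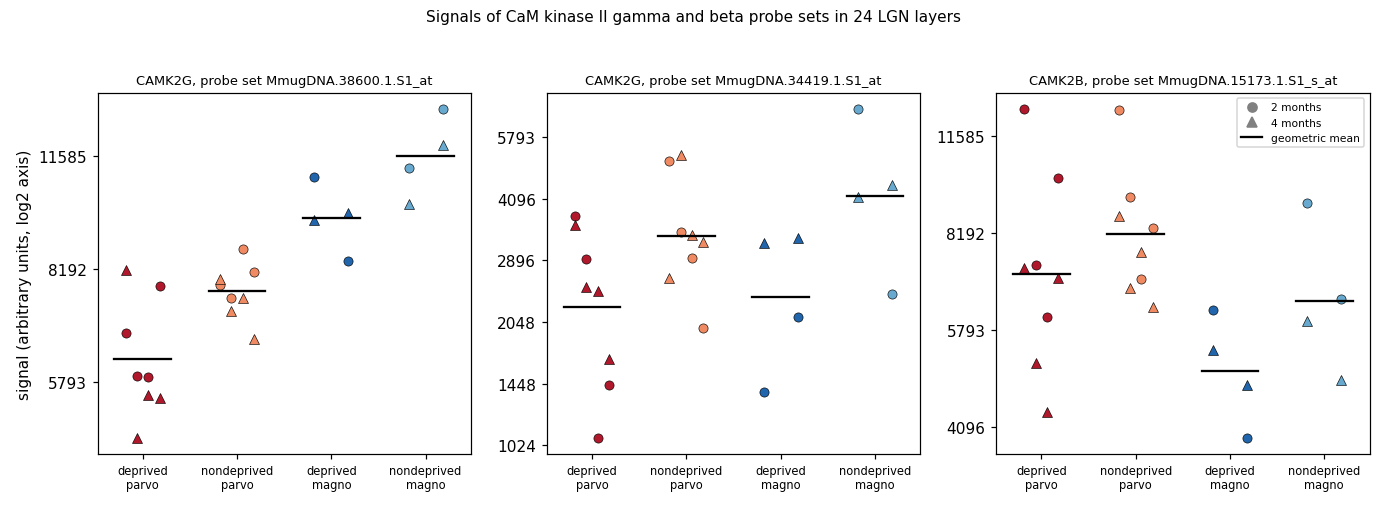
Signal (arbitrary units, log2 axis) of a pair of CAMK2G probe sets and the primary CAMK2B probe set on each of 24 arrays, by group; circles are the animal of 2 months, triangles the animal of 4 months, and lines the geometric mean. The primary CAMK2G signals run from 4888 to 8719 in parvocellular and from 8386 to 13359 in magnocellular layers, while those of CAMK2B reach 12747 in parvocellular and 9124 in magnocellular layers.

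CAMK4, the nuclear CaM kinase, did not pass in any comparison of layers. MmuSTS.2178.1.S1_at read between 572 and 2192 (median 883) in deprived and between 794 and 2092 (median 1037) in nondeprived parvocellular layers, a log2 ratio of -0.24 (SE 0.16, adjusted p = 0.647), with 3 of 4 LGNs negative. In magnocellular layers it lay between 624 and 1322 (median 904) in the deprived and between 830.5 and 1386 (median 1034.5) in the nondeprived group (-0.23, SE 0.29, adjusted p = 0.902). Between the classes it had 0.10 (SE 0.14, adjusted p = 0.782). Its other probe set, MmugDNA.4199.1.S1_at, read between 121 and 761 on all arrays, with -0.32, -0.12 and 0.19 in these comparisons of classes, of parvocellular and of magnocellular deprivation.

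PPP3CB, the beta form of the catalytic subunit of calcineurin, held the only call for deprivation. MmugDNA.25748.1.S1_at read between 1306 and 1869 (median 1637) in 8 deprived parvocellular layers and between 2199 and 3579.5 (median 2678) in 8 nondeprived parvocellular layers. The means were 1602.5 ± 200.3 and 2783 ± 416 (SD, n = 8 layers each), and the groups did not overlap. It was the only one of the 17 probe sets of which this held, beside 0.165% of all probe sets. The log2 ratio was -0.79 (SE 0.10, limma adjusted p = 0.00213), a fold of 1.73, and it was -0.96 and -0.83 in the contralateral and -0.54 and -0.84 in the ipsilateral LGN at 2 and 4 months. In this RNA of whole layers, fewer cells carrying the transcript and less transcript per cell cannot be told apart. The call was lost after scaling to a common median (-0.76, adjusted p = 0.0975) and in either animal alone (-0.75 at 2 months, adjusted p = 0.147, and -0.84 at 4 months, adjusted p = 0.286).

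**Figure D4:**
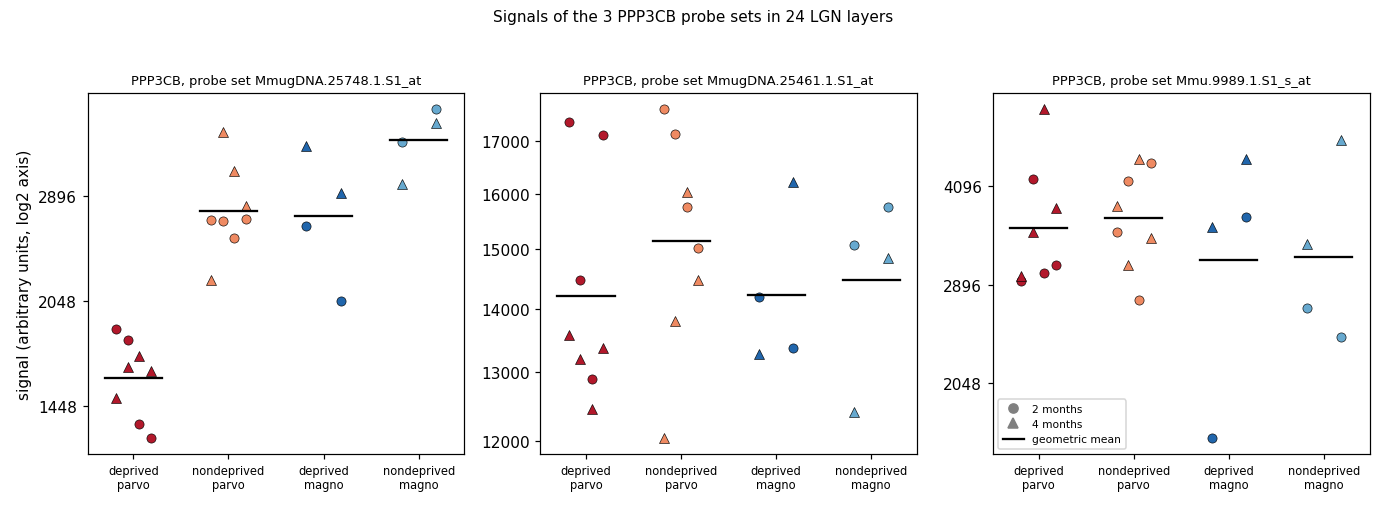
Signal (arbitrary units, log2 axis) of the 3 PPP3CB probe sets on each of 24 arrays, by group; circles are the animal of 2 months, triangles the animal of 4 months, and lines the geometric mean. At MmugDNA.25748.1.S1_at the 8 deprived parvocellular layers lie between 1306 and 1869, all below the 8 nondeprived parvocellular layers at 2199 to 3579.5, while the groups overlap at the other 2 probe sets.

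The other PPP3CB probe sets did not separate the same layers. MmugDNA.25461.1.S1_at, the primary one, read between 12457 and 17397 (median 13472) in deprived and between 12051 and 17648 (median 15387) in nondeprived parvocellular layers (log2 ratio -0.09, SE 0.09, adjusted p = 0.775). The third probe set read between 2929 and 5379 (median 3295) in deprived and between 2739 and 4507 (median 3649) in nondeprived layers (-0.05). The fall at MmugDNA.25748.1.S1_at was larger than that at the primary probe set by 0.70 and than that at the third by 0.74 on the log2 scale, in 4 of 4 LGNs. Both differences had an exact permutation p of 0.00154, the smallest that 1296 arrangements within LGNs allow (two-sided, adjusted p = 0.00309 over the 6 differences). MmugDNA.25748.1.S1_at was singled out by its call in this same comparison, so these p-values are too small and add no support. Which stretch of the transcript each probe set reads is not given in the sources used here, so the difference in signal belongs to 1 of 3 readings of the gene.

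In magnocellular layers the same PPP3CB probe set read 2049.9 and 2931 in contralateral layer 1 and 2621 and 3423 in ipsilateral layer 2 of the deprived group at 2 and 4 months. In the nondeprived group it read 3858 and 3685 in contralateral layer 2 and 3465 and 3015.5 in ipsilateral layer 1. The deprived layer was lower in 3 of 4 LGNs and the groups overlapped, with a log2 ratio of -0.37 (SE 0.27, adjusted p = 0.843). The parvocellular effect was 0.43 below the magnocellular one at an unadjusted p of 0.0425 (limma adjusted p = 0.737), so a difference between the classes in their response was not shown.

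Between the classes, MmugDNA.25748.1.S1_at was lower in parvocellular layers, at 2193 ± 686 (SD, n = 16 layers; median 2034), than in magnocellular layers, at 3131 ± 599 (SD, n = 8 layers; median 3219). The log2 ratio was -0.55 (SE 0.10, limma adjusted p = 0.00132), a fold of 1.47, lower in 4 of 4 LGNs. It was -0.77 among deprived layers only (adjusted p = 0.0651) and -0.34 among nondeprived layers only (adjusted p = 0.32), and the call was also lost in either animal alone and after scaling to a common median (-0.44, adjusted p = 0.186). The primary PPP3CB probe set had 0.03 (SE 0.08, adjusted p = 0.887), which is 0.59 above it in 4 of 4 LGNs (exact permutation p = 0.00312, adjusted p = 0.00468 over the 6 differences). The third probe set had 0.18 and stood 0.74 above it (exact permutation p = 0.00492, adjusted p = 0.0059). As MmugDNA.25748.1.S1_at was chosen for its call here, these permutation p-values are also too small and add no support.

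Markers of other cell types moved in the same comparisons. Between deprived and nondeprived parvocellular layers 1 of 4 astrocyte markers rose, GFAP, with a log2 ratio of 1.07 (SE 0.21, adjusted p = 0.0184). SLC1A2 (0.16), SLC1A3 (-0.06) and ALDH1L1 (0.23) did not pass. The summed signal of the 4 ran from 19262 to 48467 (median 33079) in deprived and from 21313 to 39504 (median 23685) in nondeprived layers. SLC1A2 and SLC1A3 outweighed GFAP in that sum (median signals of 14751, 11219 and 4770.5 over all arrays). None of 4 neuron markers passed. Their sum ran from 67470 to 79813 (median 76170) in deprived and from 68236 to 96246 (median 73315) in nondeprived layers. Of 2 oligodendrocyte, 6 microglial, 3 endothelial and 2 GABAergic markers tested none passed, nor did NEFH of large neurons. GAD1 had 0.29 (limma unadjusted p = 0.0188, adjusted p = 0.291), higher in 4 of 4 LGNs, and NEFH -0.26 (unadjusted p = 0.0148, adjusted p = 0.26), lower in 4 of 4. P2RY12 of microglia had 0.53 (limma unadjusted p = 0.0098, adjusted p = 0.217), higher in 4 of 4, and all 6 microglial markers were positive. ENO2 of neurons had -0.24 (limma unadjusted p = 0.041, adjusted p = 0.403), lower in 4 of 4, and 3 of 4 neuron markers were negative. The GAPDH 3′ to 5′ ratio was 2.65 to 7.88 (median 5.08) in deprived and 1.97 to 6.06 (median 4.74) in nondeprived parvocellular layers, and with it as a covariate PPP3CB kept its call (-0.78, adjusted p = 0.00737). Between parvocellular and magnocellular layers GAD1, 1 of 2 markers of GABAergic neurons, had -0.56 (adjusted p = 0.00213). The other, GAD2, had 0.40 (adjusted p = 0.376), higher in 3 of 4 LGNs. GAD1 outweighed GAD2 in the sum of both (median signals of 14122 and 609 over all arrays). That sum ran from 9296 to 16045 in parvocellular and from 14408 to 24464 in magnocellular layers. NEFH, the neurofilament of large neurons, had -0.66 (adjusted p = 0.00229) in that comparison. No neuron, astrocyte, oligodendrocyte, microglial or endothelial marker passed there. At an unadjusted limma p under 0.05, SLC1A3 (-0.36) and ALDH1L1 (-0.50) of astrocytes and CNP (-0.25) of oligodendrocytes were lower. PECAM1 (0.29) and VWF (0.46) of endothelium were higher at that level. The part of these markers in the CAMK2G and PPP3CB results was not tested.

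By single layer, layers 1 and 2 had the highest geometric mean signals over 4 LGNs at the primary CAMK2G and CAMK2D probe sets and MmugDNA.25748.1.S1_at of PPP3CB. They had the lowest at the primary CAMK2B probe set. For the primary CAMK2D probe set the means of nondeprived layers were close, 13238 in magnocellular and 13082 in parvocellular layers. Other probe sets of these genes ran otherwise. At MmugDNA.36016.1.S1_at of CAMK2B the mean was 2361 in layer 1 and 1194 in layer 2. The lowest and highest parvocellular means were 1838 in layer 5 and 2521 in layer 6. At MmugDNA.4814.1.S1_at of CAMK2D layer 4 had the highest mean, 5802, against 5016 in layer 1. The primary CAMK2G probe set ran from layer 2 through layers 1, 3, 6 and 4 to layer 5, over 0.85 on the log2 scale. The step between layers 1 and 3 was 0.34 and exceeded the within-layer SD of 0.23, and no other pair of neighbours differed by more than that SD. MmugDNA.25748.1.S1_at of PPP3CB ran from layer 2 through layers 1, 5, 3 and 6 to layer 4 over 0.80, with a largest step of 0.37 inside the within-layer SD of 0.44. The primary CAMK2B probe set ran from layer 3 through 6, 4, 5 and 2 to layer 1 over 0.57, with no step above its within-layer SD of 0.43. For CALM3, CAMK4 and CAMK2D the spans were 0.45, 0.62 and 0.31, with within-layer SDs of 0.51, 0.50 and 0.25, and no neighbours differed beyond their spread. The primary PPP3CB probe set spanned 0.20 with an SD of 0.17, and CAMK2A, near the floor, 1.65 with an SD of 1.32. Each layer holds deprived and nondeprived arrays, 2 of each, so this spread includes deprivation.

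**Figure D5:**
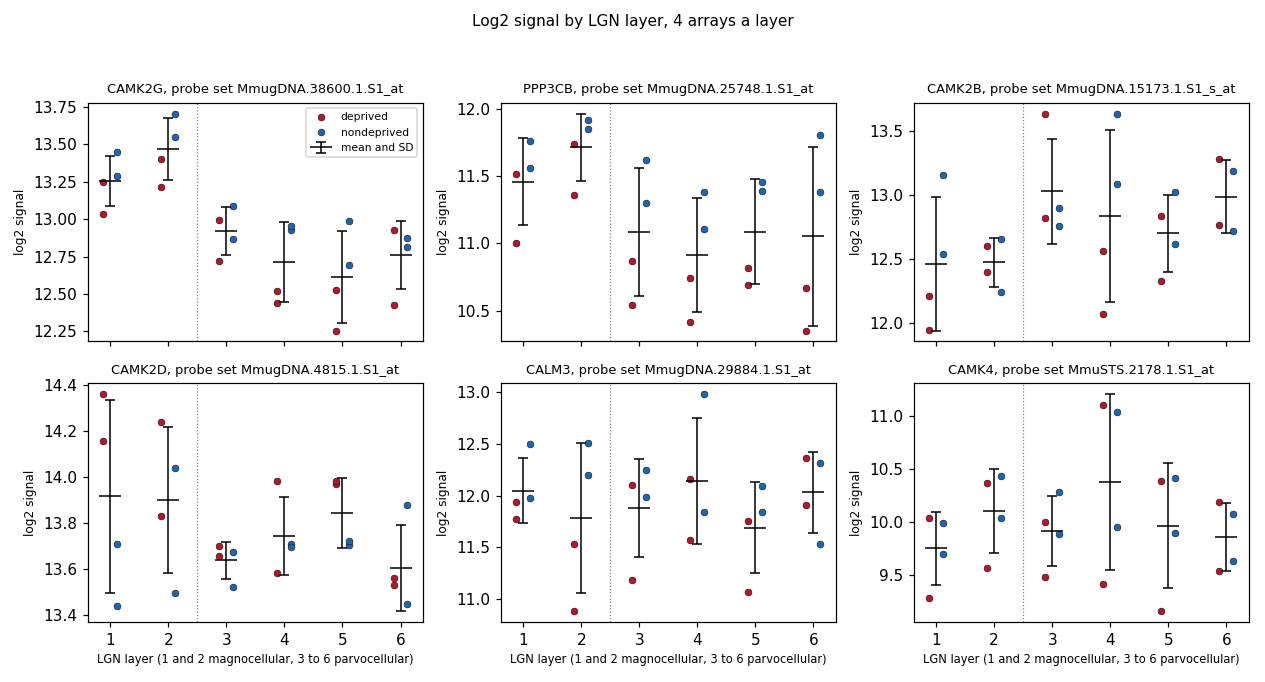
Log2 signal by LGN layer (1 and 2 magnocellular, 3 to 6 parvocellular) for the primary probe sets of CAMK2G, CAMK2B, CAMK2D, CALM3 and CAMK4 and for MmugDNA.25748.1.S1_at of PPP3CB; points are single arrays, deprived in red and nondeprived in blue, and the bars are the mean and SD of 4 arrays. CAMK2G and MmugDNA.25748.1.S1_at of PPP3CB are highest in layers 2 and 1, with spans of 0.85 and 0.80, and the primary CAMK2B probe set is lowest in layers 1 and 2.

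No member passed between the outer parvocellular layers 5 and 6 and the inner layers 3 and 4, and 0% of all probe sets did (3377 at an unadjusted p under 0.05). CAMK2G at MmugDNA.15204.1.S1_at was the 1 member with an unadjusted p under 0.05 there, with -0.37 (unadjusted p = 0.0261, limma adjusted p = 0.522), lower in 4 of 4 LGNs. Layer 1 against layer 2 also gave no call (0%, 1142 at an unadjusted p under 0.05). CAMK2B at MmugDNA.36016.1.S1_at read between 1793 and 2820 (median 2416) in 4 arrays of layer 1 and between 664 and 1524 (median 1295) in 4 arrays of layer 2. The groups did not overlap, which held for 1 of 17 members and for 1.28% of all probe sets, and the log2 ratio was 1.03 (SE 0.29, unadjusted p = 0.0047, limma adjusted p = 1.00).

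The animals differed in some of the kinase signals. In parvocellular layers the primary CAMK4 probe set read between 1023 and 2192 (median 1292) in the animal of 4 months and between 572 and 992 (median 769) in the animal of 2 months. MmugDNA.36138.1.S1_at of CAMK2D read between 201 and 518 (median 469.6) in the animal of 4 months and between 87.8 and 174 (median 133) in the animal of 2 months. These were the 2 of 17 probe sets without overlap between the animals in this class, beside 3.41% of all probe sets. In magnocellular layers the 1 such member was MmugDNA.4814.1.S1_at of CAMK2D, between 5468 and 7706 at 4 months and between 1039.5 and 5225 at 2 months, beside 12.2% of all. With 1 animal at each time there is no test of age. The deprivation effect of the parvocellular layers was not shown to differ between the animals for any of the 17 (none with an unadjusted p under 0.05, 0% of all probe sets called and 1465 at an unadjusted p under 0.05).

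Of 41 other genes of calmodulin signaling, 32 had a probe set with a single symbol and 26 were tested, 6 lying below the minimum. Between parvocellular and magnocellular layers 1 of 26 was higher and none was lower, beside the 3.60% of all probe sets that passed. The 1 was DAPK1, a calmodulin-regulated kinase of cell death. It read between 651 and 1544 (median 871) in parvocellular and between 219 and 636 (median 313) in magnocellular layers. The groups did not overlap, which held for 0.0797% of all probe sets. Its log2 ratio was 1.46 (SE 0.13, adjusted p = 1.36e-07), higher in 4 of 4 LGNs, opposite in sign to the CAMK2G and PPP3CB probe sets that passed. The median of the 26 was 0.07, against -0.03 for all probe sets.

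Among the inhibitors and the remaining subunits, CAMK2N1, which binds and inhibits CaM kinase II, read between 10987 and 16459 (median 12516) in parvocellular and between 7611 and 12904 (median 10689) in magnocellular layers (0.26, adjusted p = 0.128). PPP3CC, another catalytic subunit of calcineurin, read between 1063 and 1714 (median 1374) in parvocellular and between 1168 and 1803 (median 1449) in magnocellular layers (-0.08), and its log2 ratio for parvocellular deprivation was 0.01. For deprivation none of the 26 passed in either class, beside 0.970% of all probe sets in parvocellular and 0% in magnocellular layers. At an unadjusted limma p under 0.05 there were 4 in parvocellular and 1 in magnocellular layers, beside 11.4% and 5.68% of all probe sets. RCAN1, which binds and restrains calcineurin and whose transcription calcineurin drives, read between 1559 and 2471 (median 2102) in deprived and between 1264 and 2008 (median 1637) in nondeprived parvocellular layers. Its log2 ratio was 0.35 (adjusted p = 0.142). ATP2B3, a calmodulin-regulated calcium pump of the plasma membrane, had -0.70 (adjusted p = 0.101). None of the 4 NFAT genes passed, with values between -0.10 and 0.27. The 26 had a median of 0.08 for parvocellular deprivation, against -0.12 for the 17 member probe sets and -0.01 for all.

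The genes whose signal followed each member most closely were listed from 9449 genes, by Pearson's r over 24 arrays after each LGN's mean was removed. These values describe the arrays, which share animals and layers. For CAMK2G they were ANO3 (r = 0.90), SESN3 (0.90) and EPN1 (0.88). For CAMK2D they were RAB1A (0.88), VPS9D1 (0.87) and PET100 (0.85), for CAMK2B they were ADCK1 (0.88), GLG1 (0.85) and PRPF8 (0.85), and for CALM3 they were SMPD1 (0.86), DHRS11 (0.84) and ATG9A (0.84). The primary PPP3CB probe set was closest to RPL15 (0.80), CAMK4 to ZFHX4 (0.73) and FAM117A (0.70), and CAMK2A, whose signals lay near the floor, to GTF2H4 (0.78).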

How the data were processed

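Signals of 24 arrays (Rhesus Macaque Genome Array) were analysed. Each array held RNA of 1 laser-captured layer, pooled over sections and amplified in a pair of linear rounds. The deposited values are signal intensities that the authors computed with the GeneChip Operating Software (GCOS) and scaled so that the mean of each array, trimmed by 2% at each end, was 500.04. No presence calls were used.

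The 99 control probe sets were left out. Probe sets reaching 100 on at least 1 array were kept (37623 of 52766), signals under 1 were set to 1, and log2 signals were fitted with limma 3.58.1 (R 4.3.3, lmFit, and eBayes with its trend option). The LGN was a fixed block, p-values were adjusted by Benjamini and Hochberg over all probe sets kept, and the threshold was 0.05. The number of arrays limits the precision.

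Every probe set that the platform annotation assigns to 1 symbol of the list was followed, and the one with the highest mean log2 signal was taken as primary for its gene. The members and the other lists were chosen with earlier results of these data known. For other pathway genes, those past the threshold were named, plus PPP3CC and CAMK2N1; any other gene that this rule names is not reported here. Any further gene named with values was chosen after its values were seen. For likeness, the 3 genes with the highest Pearson correlation were named.

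Alternatives covered quantile and median scaling, the pseudocount, the floor, the filter, the trend, the GAPDH ratio as a covariate, the block, either animal alone, either deprivation state alone and leaving out each array. Leaving out the array that stood apart from the differences between probe sets was chosen after seeing the data.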

Additional observations from a re-analysis of the deposited data

Results flagged for a closer look

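Of 32 groups of 4 or 8 arrays of the 7 primary probe sets and of MmugDNA.25748.1.S1_at of PPP3CB, 3 held an array that lay apart from the rest by Dixon's criterion, which chance alone meets in about 1 of 20 groups. All 3 were high values in the nondeprived parvocellular group and came from layer 4 of an ipsilateral LGN. CALM3 (MmugDNA.29884.1.S1_at) read 8076.7 in that layer at 4 months, with the next highest of the 8 at 5098. CAMK4 (MmuSTS.2178.1.S1_at) read 2091.6 on the same array, with the next at 1365. CAMK2B (MmugDNA.15173.1.S1_s_at) read 12716 in that layer at 2 months, with the next at 9314.5.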

How the results depend on the processing

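Of 883 values of 31 single log2 fold changes under the alternatives, 848 kept their sign and side of the threshold, and 53 further fold changes gave 1366 values, of which 0 were called and 142 had another sign. The calls rest on scaling and on both animals together. Between parvocellular and magnocellular layers the 2 calls became 0 after scaling to the same median, 0 at 2 months alone, 1 at 4 months alone (CAMK2G), 0 in deprived layers only and 1 in nondeprived layers only (CAMK2G). For parvocellular deprivation the 1 call became 0 after that scaling and 0 in each animal alone, and was 1 to 2 when 1 array was left out, 2 without nondeprived layer 4 of the ipsilateral LGN at 4 months. Median scaling moved the median over all probe sets of the class comparison to 0.08, against -0.03, and that of magnocellular deprivation to -0.15, against 0.13.

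The signs that turned belonged to values that had not passed. The primary PPP3CB probe set had 0.0124 for magnocellular deprivation after quantile normalization, 0.11 at 4 months alone and -0.0757 to 0.046 when 1 array was left out. Between the classes it had -0.0137 with the GAPDH ratio as a covariate, -0.0564 at 4 months alone and -0.000898 in deprived layers only. CALM3 between the classes had -0.16 at 2 months alone, -0.19 in nondeprived layers only and -0.14 to 0.10 when 1 array was left out, and CAMK4 had -0.0238 at 2 months alone. CAMK2A had -0.16 for parvocellular deprivation at 2 months alone, against 0.47, and -0.18 for magnocellular deprivation at 4 months alone, against 0.77, and CAMK2D had -0.0063 for parvocellular deprivation at 2 months alone. The cause was not tested.

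Of all probe sets tested, 1355 passed between the classes and 365 for parvocellular deprivation. These counts were 789 and 25 after median scaling, 981 and 15 without the trend, 927 and 259 with the GAPDH ratio, 222 and 7 at 2 months alone and 368 and 1 at 4 months alone. The class count was 86 in deprived layers only and 469 in nondeprived layers only, and the deprivation count was 598 when mean signals of 100 or more were kept. For parvocellular deprivation 136 to 238 passed without any 1 of 11 arrays and 359 to 457 without any of the other 5 (ipsilateral layer 3 and contralateral layer 6 at 2 months, and ipsilateral layer 4 and contralateral layers 4 and 5 at 4 months), and the class count was 960 to 1872 when 1 array was left out. For magnocellular deprivation, where 0 passed, 6 did without the deprived and 9 without the nondeprived magnocellular array of the contralateral LGN at 2 months, 2 did with the GAPDH ratio, 1 at 2 months alone and 46 at 4 months alone, none of them a member. With layer numbers inside an animal as the replicate block, 133 passed for parvocellular deprivation and 1 of them was a member, PPP3CB, so the block changed no call of a member. Within an animal each layer number is deprived in 1 LGN and nondeprived in the other, so this block sets the same layer of both LGNs side by side. That block could not be estimated for the comparisons of layers, and layer 1 against layer 2 was not run in 1 animal alone. Signals near the floor limit CAMK2A.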
